A study of Homo sapiens with 15 samples.

Results

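The sites described here are places on the genome of HEK293 cells where wild-type MYC and its partner WDR5 were both called, and where a form of MYC deficient in binding WDR5 was not. They were chosen as peaks of the wild-type MYC (WT-MYC) list that share at least 1 bp with a WDR5 peak and no base with any peak of the WDR5 binding-deficient MYC (WBM-MYC) list. This gave 1677 of the 2527 WT-MYC peaks, or 66.4% (exact 95% interval 64.5 to 68.2%), and they are called WT-only WDR5 sites. The remaining WT-MYC peaks are 419 that carry WDR5 and WBM-MYC (shared WDR5 sites), 323 that carry neither and 108 that carry WBM-MYC alone.

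MYC is a transcription factor that pairs with MAX, binds E-box sequences near the start of genes and drives ribosome production, metabolism and cell growth. WDR5 is a WD-repeat protein, a ring-shaped scaffold best known as a core part of the MLL/SET complexes, which methylate lysine on histone H3 at active promoters. MYC contacts WDR5 directly through a conserved segment outside its DNA-binding domain. WBM-MYC is deficient in binding WDR5, so MYC was mapped with this contact intact and with it impaired. Whether the contact sets the class of a site was not tested.

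Chromatin immunoprecipitation with sequencing (ChIP-seq) was used, in which formaldehyde-fixed chromatin, here sheared to a mean of 200 bp, is pulled down with an antibody. HEK293 is a human embryonic kidney line. An M2 anti-FLAG resin was used on cells transduced with a retrovirus for FLAG-tagged WT-MYC, for FLAG-tagged WBM-MYC, or with the empty vector, and an antibody to endogenous WDR5 or rabbit IgG was used on HEK293 cells with no retrovirus. Each of these 5 groups has 3 libraries described as independent biological replicates, 15 in all. The tag reports introduced MYC only, and WDR5 was mapped in cells without it.

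One peak list each was analysed for WT-MYC (2527 peaks), WBM-MYC (690) and WDR5 (17171), in hg19 coordinates. The lists hold positions and no score, height or depth, so neither the spread between replicates nor the strength of a peak can be given, and a site missing from the WBM-MYC list may have been bound below an unstated threshold. Sequencing depth and any calls in vector or IgG libraries were not analysed here. The sites were chosen by the overlaps between these lists, so the overlaps below are descriptions without a test, and intervals cover counting error over peaks only. Genes were not assigned, since the gene table at hand is of another build.

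Seen from WDR5, both WT-only and shared sites were more frequent at the front of the WDR5 list than over all of it. The sites touched 1893 of the 17171 WDR5 peaks, which is 11.0% of them (exact interval 10.6 to 11.5%), and the shared sites touched 440 (2.56%, 2.33 to 2.81%). Of the first 20 WDR5 peaks in file order, 17 carried a WT-only site, 2 carried a shared site and 1 had no MYC peak at all. Among lines 21 to 100 the WT-only count was 34 of 80 (42.5%, 31.5 to 54.1%), among lines 101 to 500 it was 126 of 400 (31.5%, 27.0 to 36.3%), and among lines 501 to 1000 it was 123 of 500 (24.6%, 20.9 to 28.6%). Shared sites were on 8.75% (3.59 to 17.2%), 15.25% (11.9 to 19.2%) and 12.2% (9.46 to 15.4%) of the same lines. No MYC peak lay on 243 of the first 500 WDR5 peaks (48.6%, 44.1 to 53.1%). The leading 20 peaks were picked out after their values were seen, and no source used here says what the order of the file stands for.

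The very first line of the WDR5 list lies on chromosome 1 from 93297306 to 93298295. It is 990 bp wide, and a WT-MYC peak, line 153 of its own list, was centred 7 bp from its centre, with the nearest WBM-MYC peak 246401 bp away. The second line, on chromosome 17 from 80230828 to 80231943, held a WT-MYC peak 64 bp from its centre, at line 1364 of the WT-MYC list. At each of the 17, the WT-MYC peak closest to the WDR5 centre lay wholly within the WDR5 peak.

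Wide WDR5 peaks continued below them. The WDR5 peak on chromosome 19 from 49121804 to 49123276 was 1473 bp wide and held 2 WT-MYC peaks, the closer one 29.5 bp from its centre. On chromosome 1 the peak from 45240664 to 45241972 held the WT-MYC peak at line 37, with a WBM-MYC peak 10216 bp off, the shortest such gap among the 17. The longest gap, 4780877 bp, belonged to the peak on chromosome 10 from 79793368 to 79794285.

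More leading peaks had their WT-MYC centre within 20 bp of their own, among them chromosome 17 from 37009400 to 37010383 (8 bp), chromosome 1 from 21502684 to 21503884 (12.5 bp) and chromosome 17 from 72199576 to 72200461 (17 bp). So did the peak on chromosome 16 from 89626596 to 89627973 (17 bp), which held 2 WT-MYC peaks. Across all 17, the offset between centres lay between 7 and 126 bp (median 64 bp), and WDR5 width lay between 834 and 1473 bp (median 1068 bp).

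These leading WDR5 peaks did not stand equally early in the MYC list. Their WT-MYC peaks ranged from line 37 to line 1740 of 2527, with a median of 368, and 6 of the 17 fell in its first decile. The pair of leading WDR5 peaks that carried a shared site were on chromosome 19 from 1437986 to 1439201 and on chromosome 1 from 45096951 to 45098363. The one without MYC was on chromosome 5 from 40834727 to 40835955.

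Over the whole WDR5 list the share carrying a WT-only site declined from decile to decile of file order. In decile 1 it was 449 of 1718 peaks (26.1%, 24.1 to 28.3%), in decile 5 it was 157 of 1717 (9.14%, 7.82 to 10.6%) and in decile 10 it was 66 of 1717 (3.84%, 2.99 to 4.86%). Shared sites were on 10.1% of decile 1, 1.81% of decile 5 and 0.932% of decile 10. Both classes were thus densest at the front, and neither reached 0 at the end.

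**Figure D1:**
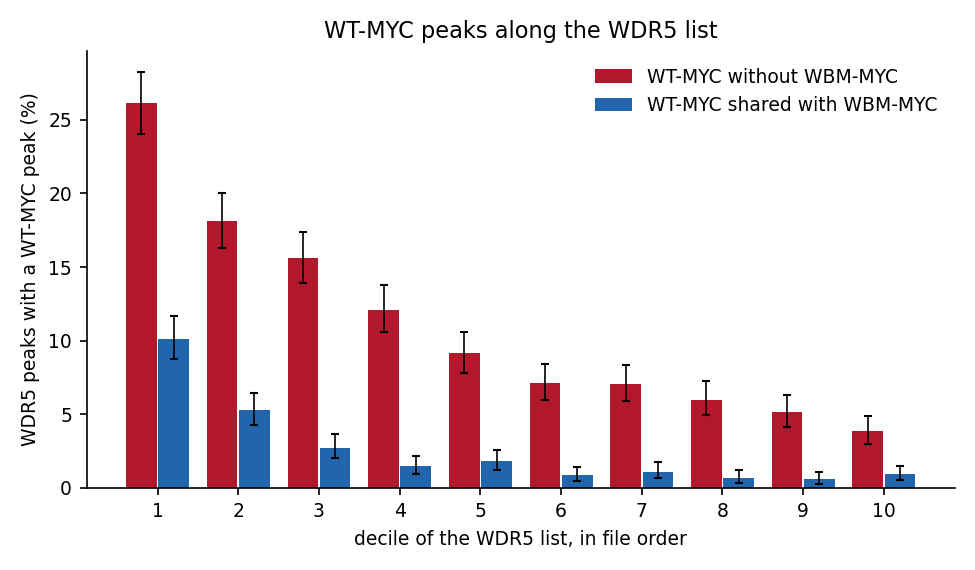
Percentage of WDR5 peaks (y axis) that carry a WT-MYC peak without WBM-MYC (red, left bar) or one shared with WBM-MYC (blue, right bar), in each decile of the WDR5 list in file order (x axis), with exact 95% intervals over peaks. Red bars go down from 26.1% in decile 1 to 3.84% in decile 10.

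WDR5 peaks under the WT-only sites were of middling width. Their median was 462 bp (exact interval of the median 454 to 474 bp, 1893 peaks), against 553 bp under shared sites (521 to 585 bp, 440 peaks) and 408 bp for the 14697 WDR5 peaks without a MYC peak (404 to 411 bp). Peaks wider than 624 bp made up 21.02% of those under WT-only sites, 31.1% of those under shared sites and 6.10% of those without MYC. Peaks of exactly 624 bp, the commonest WDR5 width, made up 6.76%, 5.23% and 22.6% of the same classes. Wide WDR5 peaks offer more bases to overlap, and the part of this in the widths was not tested.

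File position and width go together in the WDR5 list, so the widths were also read within its first decile. There the median was 618 bp under WT-only sites (588 to 639 bp, 449 peaks), 633 bp under shared sites (606 to 655 bp, 174 peaks) and 514 bp without MYC (499 to 534 bp, 1055 peaks). At the front of the list the intervals of both MYC classes overlapped, and both lay above that of the WDR5 peaks without MYC.

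**Figure D2:**
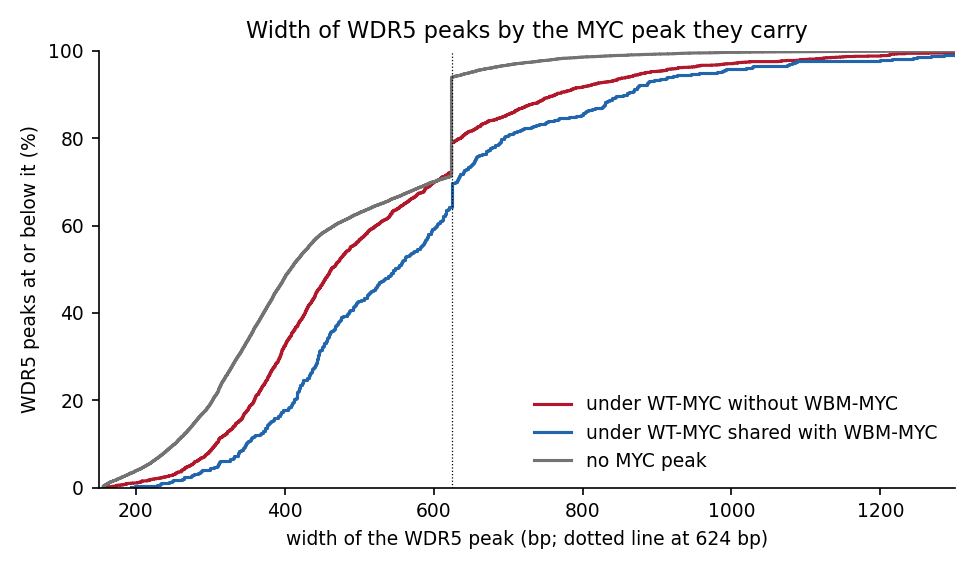
Cumulative percentage of WDR5 peaks (y axis) by width in bp (x axis) under WT-MYC without WBM-MYC (red), under WT-MYC shared with WBM-MYC (blue) and without a MYC peak (grey); 4 peaks that carry both kinds are drawn in red. The step at the dotted line is the common width of 624 bp, which holds 22.6% of the WDR5 peaks without MYC and 6.76% of those under WT-only sites.

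Along the WT-MYC list, WT-only sites made up a small part of the front and most of the rest. Beside 66.4% over the whole list, they were 81 of the first 253 peaks (32.0%, 26.3 to 38.1%), 130 of the next 253 (51.4%, 45.0 to 57.7%), 202 of 253 in decile 7 (79.8%, 74.4 to 84.6%), and 189 of 253 in decile 10 (74.7%, 68.9 to 79.9%). Their median line was 1399 (1343 to 1455), against 518 for shared WDR5 sites (442 to 616). WDR5 of any kind was on 202 of 253 peaks in decile 1, on the most, 223 of 252, in decile 3, on the fewest, 199 of 253, in decile 9 and on 200 of 253 in decile 10. Of these, 40.1% of the WDR5-bearing peaks of decile 1 lacked WBM-MYC, and 94.5% of those of decile 10 did. WT-MYC peaks without WDR5 went the same way. In decile 1, 19 of them lacked WBM-MYC and 32 carried it, and in decile 10 these numbers were 52 and 1. The rise was thus seen in the whole list and not in WDR5-bearing peaks alone.

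The MYC lists are of unequal length, so the sites were also counted with the WT-MYC list cut. This changes the class of no WT-MYC peak that is kept, so that side gives only the share at the front of the list. When the WT-MYC list was cut in file order to 690 peaks, the length of the WBM-MYC list, 334 of its peaks were WT-only WDR5 sites (48.4%, 44.6 to 52.2%). Counted the same way from the mutant's side, 275 of the 690 WBM-MYC peaks had WDR5 and no peak of the cut WT-MYC list (39.9%, 36.2 to 43.6%). Against the full WT-MYC list that number was 126 (18.3%, 15.4 to 21.3%). This cut was chosen after the data were seen.

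**Figure D3:**
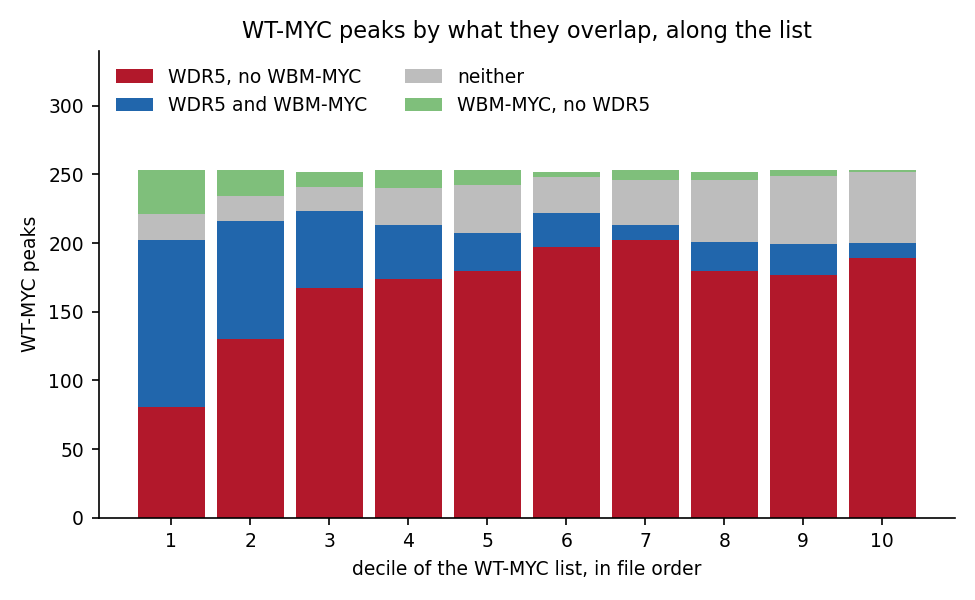
Number of WT-MYC peaks (y axis) in each decile of the WT-MYC list in file order (x axis), stacked by overlap with WDR5 but not WBM-MYC (red), with both (blue), with neither (grey) and with WBM-MYC but not WDR5 (green). Red grows from 81 peaks in decile 1 to 202 in decile 7, while blue shrinks from 121 to 11.

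The earliest WT-only sites in the WT-MYC list differed widely in their WDR5 partner. Line 15, on chromosome 7 from 45025979 to 45026232, lay wholly inside a 1134 bp WDR5 peak at line 30 of the WDR5 list. Line 37, on chromosome 1 from 45241153 to 45241648, lay inside the 1309 bp peak described above. By contrast line 47, on chromosome 17 from 7211371 to 7211866, overlapped a 624 bp WDR5 peak at line 14565, and line 63, on chromosome 17 from 61851117 to 61851319, had its nearest WDR5 centre in a 624 bp peak at line 15497.

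The other 6 of the earliest 10 had a WDR5 partner between lines 2204 and 12452. Line 25 (chromosome 2, 174219259 to 174219754) had its WDR5 partner at line 3168 and line 75 (chromosome 6, 126101780 to 126102275) at line 4346. Line 50 (chromosome 19, 57791034 to 57791529) had a partner centred 4 bp away. Line 54 (chromosome 10, 103893268 to 103893472), line 62 (chromosome 17, 7475787 to 7475934) and line 67 (chromosome 12, 58165792 to 58165983) were narrow peaks of 205, 148 and 192 bp. Narrow peaks were rare among the sites: 8 of 1677 were under 496 bp (0.477%), against 23 of 419 shared sites (5.49%).

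Position in one list said little about position in the other. Over the 1677 WT-only sites, Spearman's rho between the line of the WT-MYC peak and the line of its closest WDR5 peak was 0.13, and Pearson's r was 0.10. Over the 419 shared sites rho was 0.08. These values describe pairs of lines, and neighbouring peaks can share a WDR5 partner.

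By median, WT-only sites had a later WDR5 partner than shared sites in every quartile of the WT-MYC list. In quartile 1 the partner's median line was 2808.5 for WT-only sites (2275 to 3521, 294 sites) and 1800 for shared sites (1400 to 2371, 235 sites). In quartile 2 it was 3812.5 (3481 to 4598, 438 sites) and 2408 (1768 to 3268, 94 sites). In quartile 3 it was 4589 (4019 to 5157, 484 sites) and 2003.5 (935 to 3281, 48 sites), and in quartile 4 it was 4564 (4041 to 5076, 461 sites) and 2685.5 (1704 to 4078, 42 sites). The intervals overlapped in quartiles 1 and 4 and were apart in quartiles 2 and 3. Over all WT-only sites the partner's median line was 4055 (3798 to 4365), against 3141.5 (2502 to 4136) for the 126 WBM-MYC peaks on WDR5 that lack WT-MYC.

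Later WT-only sites also had narrower WDR5 partners. The median width of the partner was 543 bp in quartile 1 of the WT-MYC list (499 to 578 bp), then 484.5, 462 and 452 bp (432 to 471 bp in quartile 4). For shared sites, which were fewer, the same medians were 590 (548 to 619), 536 (460 to 602), 586.5 (461 to 670) and 531.5 bp (469 to 624). The medians of WT-only sites went down at each step, and their intervals in quartiles 1 and 4 did not overlap. The medians of shared sites did not follow one direction, and all their intervals overlapped.

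WT-only sites sat close to the middle of their WDR5 peak. The distance between the WT-MYC centre and the closest WDR5 centre had a median of 69 bp (65 to 76 bp), with quartiles of 28.5 and 136.5 bp, against 78.5 bp at shared sites (66 to 93 bp). It was at most 50 bp at 662 sites (39.5%) and at most 200 bp, the mean fragment length, at 1437 (85.7%), against 159 (37.9%) and 360 (85.9%) of the shared sites. The intervals of the medians overlapped. Over quartiles 1 to 4 of the WT-MYC list, the median offset of WT-only sites was 63.75, 64.25, 72.5 and 81.5 bp. Its intervals were 53.5 to 74 bp in quartile 1 and 69 to 90.5 bp in quartile 4. The median at shared sites rose as well, at 71.5, 78.25, 93.5 and 116.25 bp. There the intervals were 53.5 to 91 bp in quartile 1 and 67.5 to 141.5 bp in quartile 4.

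How the peaks nested differed between the classes. A WT-only site lay wholly inside a WDR5 peak in 364 cases (21.7%, 19.8 to 23.8%), against 150 shared sites (35.8%, 31.2 to 40.6%). The reverse, a whole WDR5 peak within the MYC peak, was seen at 429 WT-only sites (25.6%, 23.5 to 27.7%) and 64 shared sites (15.3%, 12.0 to 19.1%). WDR5 peaks under shared sites were also the wider ones, as given above, while 97.9% of WT-MYC peaks had the same width of 496 bp.

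Most WT-only sites touched 1 WDR5 peak, and 283 touched more (16.9%, 15.1 to 18.8%), against 57 shared sites (13.6%, 10.5 to 17.3%). In most such cases the WDR5 peaks overlapped or met, and at 57 WT-only sites they were parted by a gap of 2 to 199 bp. At 8 of these the WT-MYC centre fell in the gap itself, so MYC was centred between a pair of WDR5 peaks. An example is chromosome 3 from 57583056 to 57583551, where the closer WDR5 centre was 233.5 bp away. Another is chromosome 22 from 41252657 to 41253152, where it was 211 bp away.

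As many as 4 sites touched 3 or 4 WDR5 peaks, and they were named after their values were seen. They lay on chromosome 1 (228674592 to 228675087), chromosome 19 (2427242 to 2427737), chromosome 17 (2496726 to 2497221) and chromosome 10 (81107501 to 81107996). Their WT-MYC peaks stood at lines 498, 761, 1109 and 1219.

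By the rule no WT-only site touches a WBM-MYC peak, and the gap to the nearest one varied widely. It had a median of 759462 bp (659580 to 847236 bp), and 14 sites had a WBM-MYC peak within 1 kb (0.835%, 0.457 to 1.40%) and 36 within 10 kb (2.15%, 1.51 to 2.96%). Within 100 kb 285 sites had one (17.0%, 15.2 to 18.9%), and within 1 Mb 946 did (56.4%, 54.0 to 58.8%).

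Among the 14 within 1 kb, the site on chromosome 1 from 113498250 to 113498745 missed a WBM-MYC peak by 30 bp, the smallest gap. The next were on chromosome 6 from 144537444 to 144537939 (151 bp), chromosome 4 from 83350647 to 83351142 (226 bp), chromosome 16 from 30710099 to 30710594 (228 bp) and chromosome 12 from 110906082 to 110906577 (261 bp). Just on the other side of the rule, the WT-MYC peak on chromosome 6 from 144537245 to 144537740 shared 48 bp with a WBM-MYC peak. It overlaps the WT-only site listed second here, and both lie on the WDR5 peak from 144536918 to 144537608. The next shared overlaps were of 103, 123, 124 and 125 bp, on chromosomes 13, 17, 15 and 12. The last 3 of these peaks were narrow, and those on chromosomes 15 and 12 lay wholly inside a WBM-MYC peak.

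On 7 of the 1893 WDR5 peaks under WT-only sites, a WBM-MYC peak touched a different part of the same WDR5 peak (0.370%, 0.149 to 0.760%). They include the wide WDR5 peaks on chromosome 16 from 30709299 to 30710511 and on chromosome 1 from 226249430 to 226250356. At the WDR5 edge of the rule, 16 sites had an overlap under 50 bp. The shortest were 1 bp on chromosome 22 (28315784 to 28316279), 2 bp on chromosome 13 (104664143 to 104664638), 13 bp on chromosome 5 (128430675 to 128431170), 14 bp on chromosome 6 (32936351 to 32936846) and 18 bp on chromosome 5 (82769471 to 82769966). Just outside it, WT-MYC peaks on chromosome 1 (245026208 to 245026338) and chromosome 16 (28857000 to 28857495) met a WDR5 peak without sharing a base. Others on chromosomes 19, 17 and 7 missed one by 2, 5 and 6 bp.

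**Figure D4:**
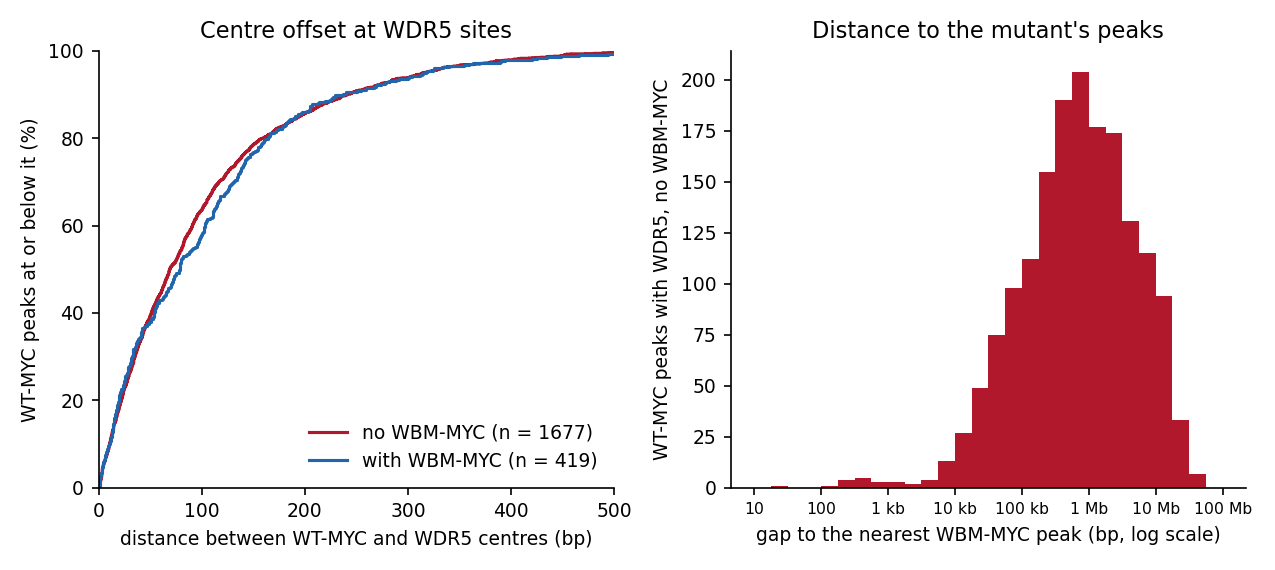
Left, cumulative percentage of WT-MYC peaks with WDR5 (y axis) by the distance in bp between WT-MYC and WDR5 centres (x axis), without WBM-MYC (red) and with it (blue), with medians of 69 and 78.5 bp. Right, number of WT-MYC peaks with WDR5 and no WBM-MYC (y axis) by the gap to the nearest WBM-MYC peak on a log axis (x axis), with a median of 759462 bp and 14 sites within 1 kb.

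The spacing of WT-only sites along the genome ranged widely. The nearest other WT-only site was a median of 198452 bp away (179278 to 218238 bp), and 584 sites had one within 100 kb (34.8%, 32.5 to 37.2%). A shared WDR5 site lay within 100 kb of 185 (11.0%, 9.57 to 12.6%). WT-only sites are the more numerous class (1677 against 419), and 35.1% of shared sites (30.5 to 39.9%) also had one within 100 kb. Within 100 kb a median of 4 WDR5 centres, the site's own included, surrounded both WT-only and shared sites.

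Close neighbours were mostly peaks that overlapped each other. Another WT-MYC centre lay within 2 kb of 154 WT-only sites (9.18%, 7.84 to 10.7%), against 84 shared sites (20.05%, 16.3 to 24.2%). It did so for 23 of the 323 WT-MYC peaks with neither partner (7.12%, 4.57 to 10.5%). For those with WBM-MYC alone it was 13 of 108 (12.0%, 6.57 to 19.7%), so the shared sites were the highest class. At 123 of the 154 the neighbour overlapped the site, and for 133 it was itself a WT-only site. After overlapping peaks of each list were merged, 2.04% of 1616 WT-only regions had a neighbour within 2 kb. The closest WT-MYC centre to any WT-only site was 199 bp away.

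The densest places held 4 WT-only sites within 100 kb, with no WBM-MYC peak among them. On chromosome 12 from 57023961 to 57119507, they sat beside 5 WDR5 peaks. There 2 of them (lines 231 and 1529) overlapped each other and shared the 1140 bp WDR5 peak at line 48. Chromosome 19 had such places at 49117641 to 49141327 and at 42758910 to 42807189, each with 6 WDR5 peaks. The first of them contains the 1473 bp WDR5 peak at line 5 of its list, where 2 sites (lines 241 and 1477) also overlapped each other. Each peak of such an overlapping pair was counted as a site. On chromosome 1 from 155145344 to 155214878, the 4 sites lay among 10 WDR5 peaks. Many places tied with 3 sites within 100 kb. The one with the earliest line in the WT-MYC list, on chromosome 10 from 103815555 to 103893472, held 7 WDR5 peaks.

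WT-only sites were found on the 22 autosomes and X. Chromosome 1 held the most, 227, and chromosome 18 the fewest, 14. Beside the 11.0% over all WDR5 peaks, the share of WDR5 peaks with a WT-only site ran from 5.08% on X (22 of 433, 3.21 to 7.59%) to 15.3% on chromosome 22 (63 of 412, 12.0 to 19.1%). It was 14.2% on chromosome 1 (12.7 to 15.9%), 14.4% on chromosome 10 (12.0 to 17.0%) and 13.8% on chromosome 17 (11.9 to 15.9%). It was 7.57% on chromosome 11 (5.93 to 9.50%) and 5.58% on chromosome 18 (3.15 to 9.03%).

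Among WT-MYC peaks with WDR5, 1677 of 2096 lacked WBM-MYC, beside 2000 of 2527 in the whole WT-MYC list. Among those without WDR5, 323 lacked it and 108 carried it. For the peaks with WDR5, the share without WBM-MYC also differed by chromosome. It ran from 68.4% on chromosome 21 (26 of 38, 51.3 to 82.5%) to 93.3% on chromosome 18 (14 of 15, 68.1 to 99.8%), around 80.0% over all chromosomes (78.2 to 81.7%). Chromosomes 1 and 5 had 73.5% (68.2 to 78.3%) and 71.7% (63.0 to 79.3%). Chromosome 9 had 75.9% (62.8 to 86.1%), although 44 of its 119 WT-MYC peaks were WT-only WDR5 sites (37.0%, 28.3 to 46.3%). The end of chromosome 9 from 135906641 to 140635243, which starts where neighbouring WDR5 peaks first enclose 10 or more WT-MYC peaks, had 3 WDR5 peaks and 46 WT-MYC peaks. There 2 of the 46 were such sites, at 140429224 to 140429719 and at 140634748 to 140635243, which the choice of the region by its WDR5 gaps keeps low. Just before it lay 2 more, at 135819762 to 135820257 and 135897539 to 135898034.

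**Figure D5:**
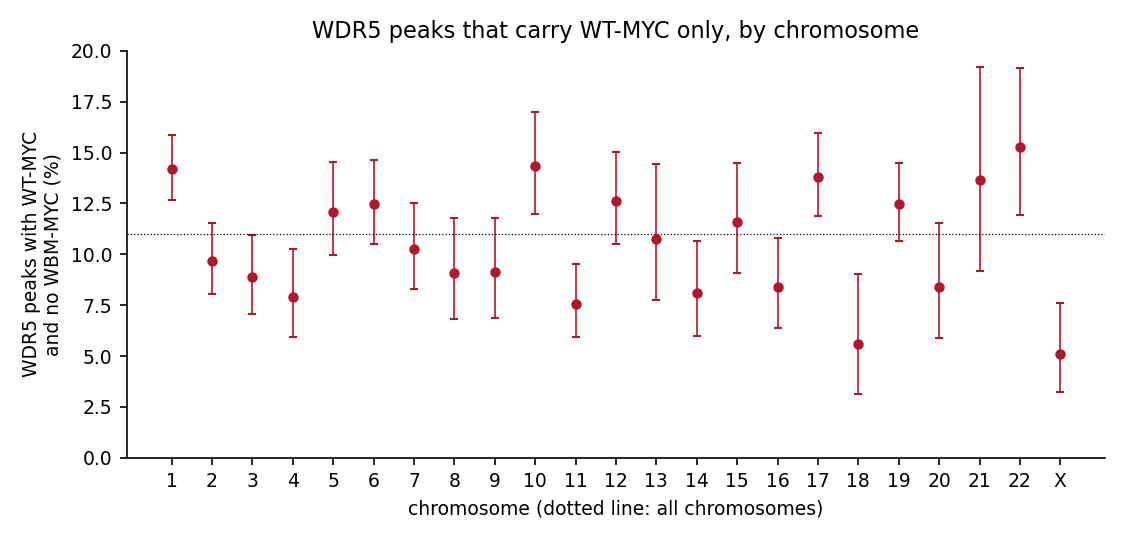
Percentage of WDR5 peaks that carry a WT-MYC peak without WBM-MYC (y axis) on each chromosome (x axis), with exact 95% intervals over peaks. Chromosome 22 is highest at 15.3% and X lowest at 5.08%, around the dotted line at 11.0% for all chromosomes.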

How the data were processed

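The authors deposited 1 peak list each for WT-MYC, WBM-MYC and WDR5, with 3 columns (chromosome, start, end) and no header, score or p-value. Coordinates are hg19, and CASAVA 1.8.2 for base calling and Bowtie 0.12.7 for alignment are named, per the submitters' processing notes. How peaks were called, at what threshold, against which control and from pooled or single libraries is not given in the sources used here. The sites and lists were chosen with earlier results of these data known.

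Overlap meant at least 1 bp in common, and each MYC peak was paired with the overlapping WDR5 peak of closest centre. Deciles and quartiles divide a list by line number. Shares have Clopper-Pearson and medians exact order-statistic 95% intervals (Python 3.11.15, scipy 1.17.1), which treat neighbouring peaks as independent. The count of 1677 was the same with bedtools 2.31.1, and all 2000 simulated peaks were classed as planted. Regions named are the earliest 10 sites, 5 on either side of each edge of the rule and the 5 densest places (ties by file order), unless stated. Peaks on chromosome 9 reach 2303434 bp past the last GRCh38.p14 gene, so the planned counts at gene starts, gene lists and E-box searches were not run. Alternatives covered the overlap rule, the part of each list used, merging and regions left out.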

Additional observations from a re-analysis of the deposited data

How the results depend on the processing

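Of 41 values under other settings, 25 stayed within the 95% interval of the reported value and 16 moved out of it. The share of WT-MYC peaks that are WT-only WDR5 sites (66.4%) was 62.8% (1588 sites) with at least 50% of the shorter peak covered. A centre inside the other peak gives the same sites by construction. It was 57.9% (732 sites) in the first 50% of each list, and 48.4% (334 sites) with the WT-MYC list cut to the length of the WBM-MYC list, which was added after seeing the data. The median centre offset (69 bp) was 64.5 bp under the 50% and centre rules, 82 bp with overlapping peaks merged and 63.75 bp in the cut list. The median WDR5 width (475 bp, closest peak) was 533 bp in the first 50% of each list, 540 bp after merging and 543 bp in the cut list. The median file position (55.4% of the way down the list) was 62.0% in the cut list. The share beside another WT-MYC peak (9.18%) was 5.19% in the first 50%, 2.04% after merging, 3.59% in the cut list and 11.1% with 5 kb in place of 2 kb. Fewer peaks, by construction, leave fewer neighbours. WBM-MYC peaks widened by 1 kb, autosomes alone and removal of the end of chromosome 9 moved no value out of its interval. No paired analysis was possible because the lists analysed, 1 each for WT-MYC, WBM-MYC and WDR5, hold no replicates, and leaving out a replicate was not possible for the same reason. Depth and peak strength are unknown.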

Other observations

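The WT-only sites have a counterpart in 126 WBM-MYC peaks that lie on WDR5 without a WT-MYC peak. The centre of the WT-MYC peak lay a median of 69 bp from the closest WDR5 centre at the 1677 WT-only sites (exact interval 65 to 76 bp), against 88.75 bp for the WBM-MYC peak at those 126 (57.5 to 114.5 bp). The WDR5 peak was a median of 475 bp wide at WT-only sites (462 to 488 bp), against 484.5 bp (455 to 554 bp) at the 126. It stood in the first decile of the WDR5 list for 445 of the WT-only sites (26.5%, 24.4 to 28.7%), against 39 of the 126 (31.0%, 23.02 to 39.8%) and 186 of the 419 shared sites (44.4%, 39.6 to 49.3%). No test was made, since the lists chose each class.

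Some WT-MYC peaks with neither partner lay close to one. Of these 323 peaks, 64 had a WDR5 peak within 500 bp (19.8%, 15.6 to 24.6%), and 10 had a WBM-MYC peak within 1 kb (3.10%, 1.49 to 5.62%). Of the 419 shared WDR5 sites, 147 had a WT-only site within 100 kb (35.1%, 30.5 to 39.9%) and 106 had another shared site (25.3%, 21.2 to 29.7%).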
